A study of Mus musculus with 191 samples.

Results

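Of 9 genes of the heat shock and cold responses, 8 could be measured in mouse lung on probe sets of the array that name them alone. They were the heat shock genes Hsph1, Hspa1a, Hspa1b, Hspa8, Hspb1, Hsp90aa1 and Dnajb1, and the cold-inducible gene Cirbp, measured by 20 probe sets. The remaining member, Rbm3, had only probe sets that the annotation lists with both Rbm3 and its pseudogene Rbm3-ps, and these are described apart. All 8 measured genes were among the 13524 of 18194 genes that passed a filter on dim values, and the question was whether the heat shock genes and Cirbp moved in opposite directions when mice were exposed to chemicals.

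Cells answer heat and unfolded protein by releasing heat shock factor 1, which binds repeats of the unit GAA and its complement TTC in alternating orientation and raises the transcription of chaperones. Hsph1 encodes an Hsp110 chaperone that exchanges nucleotide on Hsp70, Hspa1a and Hspa1b the inducible Hsp70 proteins, Hspa8 the constitutive Hsc70, Hspb1 the small heat shock protein Hsp27, Hsp90aa1 the inducible Hsp90 alpha, and Dnajb1 the Hsp40 partner of Hsp70. Cirbp and Rbm3 encode RNA-binding proteins that are induced by mild cold and repressed by warming, and Cirbp also follows the daily rhythm of body temperature.

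The samples were right lung lobes of B6C3F1 mice, all female and of a hybrid strain common in cancer bioassays, exposed for 13 weeks and aged 18 weeks. All animals, controls included, were killed with pentobarbital and exsanguination, and the labels give no hour of collection. There were 133 arrays of exposed mice, in 34 groups for 26 chemicals, and 58 of control mice in 14 sets, with 3 to 5 arrays of separate animals in a group. Each exposed group was compared with the control sets that shared its vehicle and its array batch (4 batches), and every chemical but methylene chloride and naphthalene was given at 1 dose. Levels are the deposited values, on a log scale centred on each array and taken as log2, so a value compares a gene between arrays and not one gene with another. A change is given ± its standard error, and a gene is said to have risen or fallen where its adjusted p, from limma over all genes, was under 0.05, with one sign, for each control set it was compared with. All 9 lung markers checked lay above the median of all values on every array. In whole lung, fewer cells of a type and less RNA per cell cannot be told apart.

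The groups in which a member rose or fell, and all concentrations of Naphthalene and Methylene Chloride whether or not a member was called, were the following. In chow, mice received malathion at 14800 ppm by the treatment protocol (the titles of the 4 arrays carry 16000) or 2,2-Bis(bromomethyl)-1,3-propanediol at 1250 ppm, both against plain Rodent Chow set FCO2. In corn oil they received Coumarin at 200 mg/kg against sets CCO2 and CCO3, Iodoform at 93 mg/kg or Trichlorofluoromethane at 3925 mg/kg against set CCO4, or 1,2,3-Trichloropropane at 60 mg/kg against sets CCO5 and CCO6. In distilled water they received N-Methylolacrylamide at 50 mg/kg against set WCO1. In air they inhaled Naphthalene at 0.5, 3, 10, 20 or 30 ppm or Methylene Chloride at 100, 500, 2000, 3000 or 4000 ppm against sets ACO3, ACO4 and ACO5, of which ACO3 has its zero dose labelled in mg/m3, the unit used for Vanadium Pentoxide. Also named below are inhaled Propylene glycol mono-t-butyl ether at 1200 ppm and Vanadium Pentoxide at 2 mg/m3 against the same air sets. Tetrafluoroethylene was inhaled at 1250 ppm against air set ACO1. In chow, 1-Amino-2,4-dibromoanthraquinone at 20000 ppm and Tris(2,3-dibromopropyl)phosphate at 1000 ppm were set against FCO1.

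Of the 9 members, 6 had a window of 250 bases before to 50 bases after their start in the RefSeq table of build GRCm38.p6, which held 32851 windows of 300 bases, and Hspa8, Hsp90aa1 and Rbm3 had none. The stretches below, read 5′ to 3′ on the strand of the gene, show what the heat shock genes and Cirbp share or do not share in sequence, with the matched letters in capitals.
Hsph1, chr5:149636287-149636308, minus strand: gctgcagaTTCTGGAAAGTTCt
Hspb1, chr5:135887794-135887837, plus strand: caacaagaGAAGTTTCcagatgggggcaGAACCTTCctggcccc
Hspa1a, chr17:34972245-34972268, minus strand: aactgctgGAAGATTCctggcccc
Cirbp, chr10:80167589-80167607, plus strand: ctgTCCCCGCCtcctagtc
Hspa1a, chr17:34972278-34972301, minus strand: tcaagggaGGCGGGGAagctccac
The Hsph1 stretch begins its match 37 bases downstream of the first of the 2 listed starts and holds 3 alternating heat shock units, searched as GAANNTTCNNGAA or its complement, which 0.603% of all windows hold. The pair GAANNTTC, which overlaps that motif, is held by 7.86% of windows and the pair TTCNNGAA by 8.52%. Hspb1 holds GAANNTTC 117 and 97 bases upstream of its start, Hspa1a and Hspa1b hold it once each, and the windows of Dnajb1 and Cirbp hold neither pair. The octamer TCCCCGCC, described as a mild-cold response element, was searched on both strands and is held by 5.38% of windows. It lies at base 4 of the first of the 2 Cirbp windows and not in the second. It also lies in the windows of Hspa1a and Hspa1b and in the second of the 2 Dnajb1 windows. The Hspa1a and Hspa1b windows are alike at 296 of 300 positions. Hspa1a and Hspa1b are near-identical copies, and whether their probe sets tell them apart was not tested, so their values are uncertain as those of single genes.

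Most of the members varied widely between mice of the same group. The SD between mice of a group was 0.90 for Hspa1b and 0.86 for Hspa1a, which ranked 7 and 9 of 13524 genes, while the median gene had 0.147. It was 0.54 for Dnajb1, 0.48 for Hsph1, 0.41 for Hsp90aa1, 0.34 for Cirbp, 0.33 for Hspb1 and 0.24 for Hspa8. Over the 58 control arrays Hspa1b ran from 0.79 through a median of 3.13 to 4.53, and Cirbp from -0.03 through 0.58 to 1.53. Means of the 14 control sets lay between 2.65 and 3.33 for Hsph1, between 4.73 and 5.05 for Hspa8 and between 0.37 and 0.81 for Cirbp. FCO2, the plain chow set used for malathion, had the lowest Cirbp mean of the 14 control sets, and its Hsph1 mean of 3.31 was exceeded by that of ACO1 alone. The other plain chow sets had Hsph1 means of 2.95 (FCO1) and 2.65 (RodentChow).

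Across the 34 exposures, the 7 heat shock genes fell 9 times and rose 2 times in 238 gene-by-exposure tests, and Cirbp rose 2 times and fell 0 times in 34 tests. Over all genes and exposures 1.86% of tests were called higher and 0.722% lower. At an unadjusted p under 0.05 against every control set, the heat shock genes were higher 8 times and lower 26 times, and Cirbp higher 5 times and lower 0 times. The share of all genes at this unadjusted threshold was not counted, and the shares above are for adjusted calls only. The calls lay in 9 exposures. Heat shock genes and Cirbp were called in opposite directions in 1 exposure, malathion, and in the same direction in 0. A heat shock gene alone was called in 7 exposures, Cirbp alone in 1, and no member in 25. Of the 13 calls, 9 had no overlap between exposed and control arrays. The share without overlap among all called genes was not counted, so this count has no background. Hspa1a, Hspa1b and Dnajb1, the members with the widest spread, were called in no exposure.

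**Figure D1:**
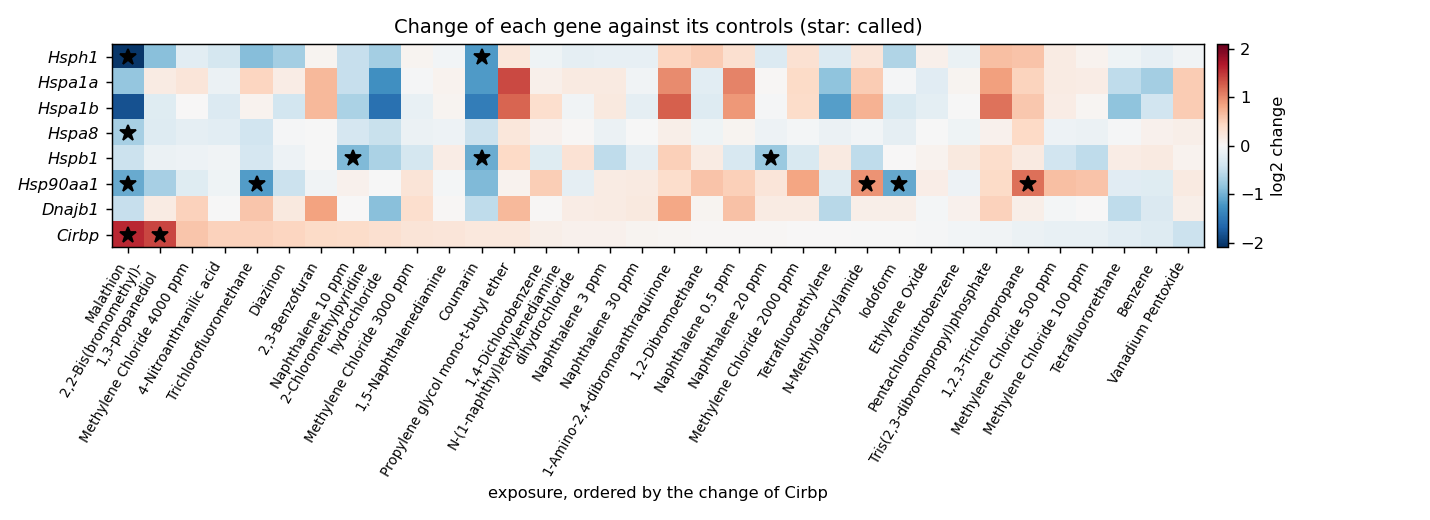
Change of each measured member (rows) in each of 34 exposures (columns, ordered by the change of Cirbp) as the log2 difference from the controls, in colour, with a star where the gene was called. Malathion, at the left end, has Hsph1 at -2.04 and Cirbp at 1.58, and the stars of the heat shock genes in the other columns stand where Cirbp has none.

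In malathion-fed mice, Hsph1 fell by 2.04 on the log2 scale and Cirbp rose by 1.58. Hsph1 was at 1.30, 1.80, 1.04 and 0.94 in the 4 malathion lungs and at 3.60, 3.10, 3.48 and 3.06 in the 4 control lungs. Every malathion lung thus lay more than a log2 unit below every one of these control lungs, and below the 1.98 of the lowest of the 58 control arrays. The change was -2.04 ± 0.33 (adjusted p = 1.08e-05), or 4.11-fold lower.

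Cirbp was at 2.46, 1.50, 2.27 and 1.53 in malathion lungs and at 0.28, 0.49, 0.30 and 0.39 in control lungs. The groups did not overlap, and the malathion lungs split into a higher and a lower pair. The change was 1.58 ± 0.24 (adjusted p = 2.00e-06), or 2.98-fold higher. Against all 58 control arrays of the series, the highest of which was at 1.53 in set CCO5, the lower pair of malathion lungs lay at the upper edge and the higher pair above it.

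Hsp90aa1 was at 3.24, 3.37, 2.91 and 2.54 in malathion lungs and at 4.14, 4.29, 3.93 and 3.94 in control lungs, again with no overlap. The change was -1.06 ± 0.29 (adjusted p = 0.0308). Hspa8, the constitutive Hsc70, was at 4.21, 4.49, 4.28 and 4.08 against 5.10, 4.76, 5.14 and 4.83, and it too separated the groups. Its change was -0.69 ± 0.17 (adjusted p = 0.0127), the smallest of the 3 called falls on the log2 scale.

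The other 4 heat shock genes were not called in malathion lungs, though all 7 changes were below 0. Hspa1b was at 1.04, 1.39, 1.16 and 0.13 in malathion lungs and at 3.50, 2.96, 2.97 and 1.61 in control lungs. The groups did not overlap, but the spread of this gene over the series left its change of -1.83 ± 0.63 at an adjusted p of 0.116. Hspa1a was at -0.81 ± 0.60 (adjusted p = 0.548), Dnajb1 at -0.48 ± 0.38 (adjusted p = 0.577) and Hspb1 at -0.45 ± 0.23 (adjusted p = 0.344). The background in this comparison was 0.991% of genes called higher and 0.717% called lower, against 1 of 1 tested cold-inducible genes higher and 3 of 7 heat shock genes lower.

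Where a second probe set measured the gene, it moved the same way in malathion lungs. The other Hsph1 probe set was at -1.81, the other 3 of Hsp90aa1 between -1.42 and -0.29, and the other 3 of Hspa8 between -0.66 and -0.16. Cirbp had 1 probe set. The 3 heat shock calls in malathion lungs and the Cirbp call held under each of 6 other ways of processing, not all of which could change them. FCO2 is the only control set here, so the test against the mean of the control sets was the same test. The arrays of low RNA integrity lie in sets ACO3 and CCO5, outside this comparison. Averaging probe sets left the Cirbp values as they were. With each of the 8 arrays left out in turn, Hsph1 and Cirbp stayed called, while Hsp90aa1 was lost in 4 cases (FCO2 replicates 1 and 2, malathion replicates 3 and 4, adjusted p up to 0.126) and Hspa8 in 2 (FCO2 replicate 3 and malathion replicate 3, adjusted p up to 0.0646).

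**Figure D2:**
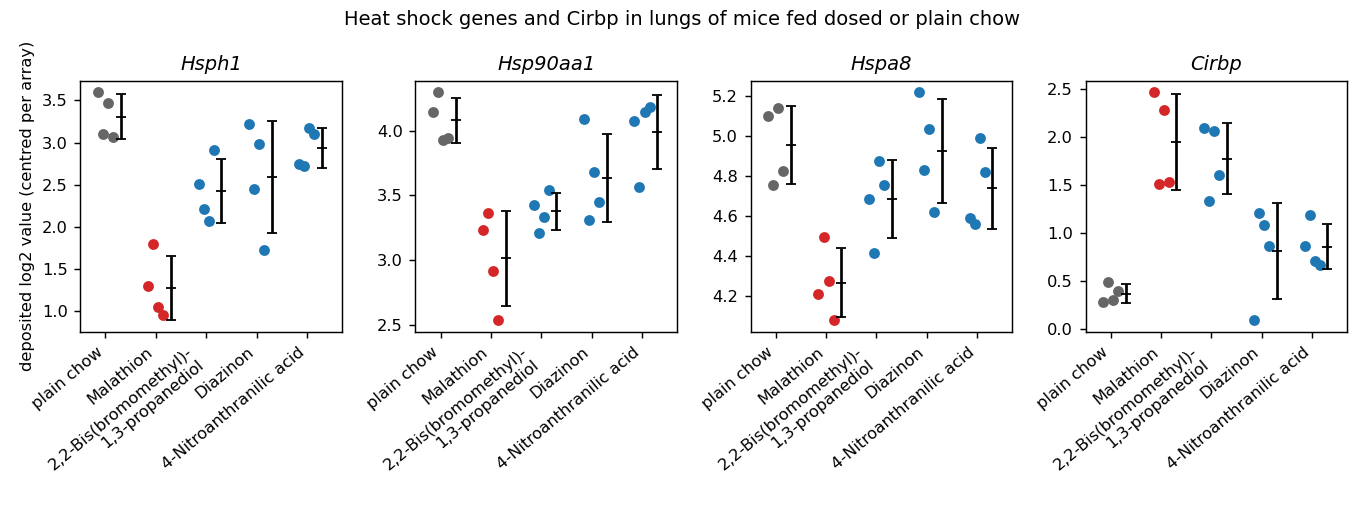
Deposited log2 values of Hsph1, Hsp90aa1, Hspa8 and Cirbp (panels) in single lungs of the chow groups of one array batch (dots), with the mean and SD of each group beside them. For Hsph1, Hsp90aa1 and Hspa8 the malathion lungs lie below all control lungs, and for Cirbp the malathion and 2,2-Bis(bromomethyl)-1,3-propanediol lungs lie above them.

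Other chaperones moved with Hsph1 in malathion lungs. Of 13 tested other cytosolic chaperones and co-chaperones, 5 fell and 0 rose, where 0.717% of all genes were called lower and 0.991% higher. Those with the lowest adjusted p were Dnaja1, an Hsp40, at -1.30 ± 0.34 (adjusted p = 0.0223), Chordc1, an Hsp90 co-chaperone, at -1.01 ± 0.26, Stip1, which links Hsp70 and Hsp90, at -0.74 ± 0.19, and Ahsa1, which stimulates the ATPase of Hsp90, at -0.59 ± 0.16. Of 12 endoplasmic reticulum chaperones 4 fell and 0 rose, namely Hspa5 (BiP) at -0.75 ± 0.20, Manf at -0.81 ± 0.22, Creld2 at -0.75 ± 0.18 and Pdia6 at -0.46 ± 0.13. Of 5 mitochondrial chaperones Hspd1 (Hsp60) fell, by 1.03 ± 0.24. None of 8 subunits of the cytosolic chaperonin was called, although all 8 changes were below 0, from -0.45 to -0.08. The median change was -0.59 over the 13 cytosolic chaperones and -0.47 over the 12 endoplasmic reticulum chaperones, against 0.01 over all genes.

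Clock genes changed in the same lungs. Of 15 tested clock genes 3 rose and 1 fell in malathion lungs, with Dbp, a clock output factor, at 1.87 ± 0.42 (adjusted p = 0.00464), Hlf at 0.48 ± 0.12, Tef at 0.59 ± 0.17 and Bmal1, the core activator, at -0.79 ± 0.18. The part of collection hour in the changes of Cirbp and the heat shock genes was not tested, since no label gives it. None of 12 immediate early genes and none of 8 temperature-linked splicing genes was called in malathion lungs. The means of 9 lung markers (such as Sftpc and Scgb1a1) ranged from 4.45 to 4.63 in malathion lungs and from 4.49 to 4.60 in control lungs, and none was called. The means of 7 lymphocyte markers ranged from 0.75 to 0.90 in malathion lungs against 0.29 to 0.54, without overlap, although none of the 7 was called. Their part in the result was not tested. Cardiac muscle markers ranged from 1.81 to 2.97 against 1.28 to 3.82, adipose markers from -0.24 to 0.63 against -0.35 to 0.98, and skeletal muscle markers from -0.65 to -0.48 against -0.62 to -0.23. Of the skeletal muscle markers Myh1 lay above the median of all values on 0 arrays and Tnnt3 on 1.

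The other chow exposures of the same batch share the FCO2 controls, so malathion was also set against each of them directly, in contrasts added after the calls were seen and at doses that differ, with 3 pairs compared and p adjusted over all genes in each. Against Diazinon at 200 ppm, like malathion an organophosphate insecticide, malathion lungs had Hsph1 lower by -1.32 ± 0.33 (adjusted p = 0.0216), Hspa8 by -0.66 ± 0.17 (adjusted p = 0.0255) and Cirbp higher by 1.13 ± 0.24 (adjusted p = 0.00334). In that contrast 0.976% of all genes were called. Against 4-Nitroanthranilic acid at 10000 ppm, Hsph1 was at -1.66 ± 0.33, Hsp90aa1 at -0.98 ± 0.29, Hspa8 at -0.47 ± 0.17 and Cirbp at 1.09 ± 0.24, all called, beside 16.1% of all genes. Against 2,2-Bis(bromomethyl)-1,3-propanediol 0% of genes were called by limma, with 2977 at an unadjusted p under 0.05. In that contrast Cirbp differed by 0.17 (95% interval -0.30 to 0.64, adjusted p = 0.640) and Hsph1 by -1.15 (95% interval -1.81 to -0.50, adjusted p = 0.102).

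In lungs of mice fed 2,2-Bis(bromomethyl)-1,3-propanediol, a brominated diol, Cirbp rose without a called heat shock gene. Cirbp was at 2.09, 1.33, 2.06 and 1.60, against 0.28 to 0.49 in the same 4 control lungs, with no overlap. The change was 1.40 ± 0.24 (adjusted p = 7.62e-05), or 2.64-fold higher. Hsph1 was at 2.51, 2.20, 2.07 and 2.92, below the 3.06 of the lowest control lung, and its change was -0.89 ± 0.33 (adjusted p = 0.0622). Hsp90aa1 was at -0.70 ± 0.29 (adjusted p = 0.0841), Hspa8 at -0.27 ± 0.17, Hspa1b at -0.25 ± 0.63, Hspb1 at -0.12 ± 0.23, Hspa1a at 0.17 ± 0.60 and Dnajb1 at 0.17 ± 0.38. With the arrays of the comparison alone Hsph1 (adjusted p = 0.0342) and Hsp90aa1 (adjusted p = 0.0302) were called lower, and when probe sets were averaged Hsp90aa1 was (adjusted p = 0.0382), so that this exposure then joined malathion in the opposite direction.

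The background here was wide and depended on the scaling. In all, 10.4% of genes were called higher, and the median change over all genes was 0.10, which quantile normalization within the batch brought to 0.01 with 27 genes called higher in place of 1411. Cirbp stayed called after that step, at 1.21 (adjusted p = 0.000860). Of the clock genes 6 rose, among them Dbp at 1.66 ± 0.42 (adjusted p = 0.0124), Hlf at 0.46 ± 0.12, Tef at 0.65 ± 0.17 and Per2 at 0.48 ± 0.13. Hspa4l, an Hsp110 relative of Hsph1, fell by 0.87 ± 0.29, and the splicing regulator Rbmx rose by 0.32 ± 0.09. The airway secretory marker Scgb1a1 fell by 0.32 ± 0.10, and the means of 7 lymphocyte markers ranged from 0.71 to 1.12 against 0.29 to 0.54 in controls. Their part in the Cirbp change was not tested.

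Coumarin, a plant lactone, was the only exposure besides malathion with more than 1 heat shock gene called. All 7 heat shock changes were below 0, and Hsph1 and Hspb1 fell, while Cirbp was at 0.23 ± 0.21 (adjusted p = 0.741). Hsph1 was at 2.66, 2.42, 0.97 and 1.48 in coumarin lungs, at 3.46, 2.69, 3.16 and 3.29 in set CCO2 and at 2.93, 2.76, 3.65 and 2.68 in set CCO3. All 4 lungs lay below all 8 controls, the first by a narrow margin and replicates 3 and 4 by over a log2 unit. The change was -1.20 ± 0.29 (adjusted p = 0.0182), or 2.29-fold lower.

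Hspb1 was at 4.11, 3.62, 2.71 and 2.81 in coumarin lungs, at 4.58, 4.14, 4.61 and 5.04 in CCO2 and at 4.56, 4.11, 4.04 and 3.84 in CCO3. The first coumarin lung overlapped the controls, and replicates 3 and 4 were again the lowest. The change was -1.05 ± 0.20 (adjusted p = 0.0123). Without coumarin replicate 3 or 4 neither gene was called, and the same held for Hspb1 without CCO3 replicate 1 and for Hsph1 without CCO3 replicate 3, with adjusted p up to 0.200 for Hsph1 and 0.154 for Hspb1. Both calls were also lost when the model was fitted to the arrays of the comparison alone. In this comparison 1.63% of genes were called lower.

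Hspa1b was at -1.45 ± 0.54 (adjusted p = 0.122), Hspa1a at -1.19 ± 0.52, Hsp90aa1 at -0.93 ± 0.25 (adjusted p = 0.0563), Dnajb1 at -0.53 ± 0.33 and Hspa8 at -0.46 ± 0.15 in coumarin lungs. None of 13 other cytosolic chaperones was called, although all 13 changes were below 0, with a median of -0.45 against -0.06 over all genes. Of 12 endoplasmic reticulum chaperones 3 fell, with Hsp90b1 at -0.75 ± 0.21, Dnajb9 at -0.65 ± 0.15 and Calr at -0.47 ± 0.12, and Hspd1 fell by 0.77 ± 0.21. Dbp rose by 1.88 ± 0.36, Tef by 0.55 ± 0.15, and Bmal1 was at -0.76 ± 0.16 and called lower. The endothelial marker Cdh5 fell by 0.61 ± 0.14 and Scgb1a1 by 0.33 ± 0.09, and the means of 9 lung markers ranged from 4.05 to 4.63 in coumarin lungs, from 4.56 to 4.79 in CCO2 and from 4.21 to 4.94 in CCO3. Their part in the heat shock changes was not tested.

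Hsp90aa1 was the member called in most exposures, lower in malathion, Iodoform and Trichlorofluoromethane and higher in N-Methylolacrylamide and 1,2,3-Trichloropropane. Iodoform and Trichlorofluoromethane share the corn oil set CCO4, which was at 4.73, 3.59, 4.63 and 3.30 and so divided into a higher and a lower pair. Iodoform lungs were at 2.97, 2.39, 3.40 and 3.14, of which 1 lay above the lowest control. The change was -1.08 ± 0.29 (adjusted p = 0.00827), where 11.9% of all genes were called lower. Trichlorofluoromethane lungs were at 2.96, 2.43, 2.36 and 3.83, the last of them within the controls. The change was -1.17 ± 0.29 (adjusted p = 0.0395), where 0.296% of genes were called lower.

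Both calls leaned on single control lungs. Without CCO4 replicate 1 or 3 neither was made, and the Iodoform call was also lost without Iodoform replicate 2, while that of Trichlorofluoromethane was lost without its replicate 1, 2 or 3. The adjusted p rose to 0.275 and 0.382. Both were lost when only the arrays of the comparison were fitted, and that of Trichlorofluoromethane also when probe sets were averaged. Cirbp was at -0.02 ± 0.24 in Iodoform and at 0.49 ± 0.24 (adjusted p = 0.221) in Trichlorofluoromethane lungs.

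In lungs of mice given N-Methylolacrylamide, Hsp90aa1 was at 4.72, 4.37, 5.30 and 4.40 against 3.51, 4.31, 3.35 and 3.82 in the water controls, with no overlap but a gap of under 0.1 between the nearest lungs. The change was 0.95 ± 0.29 (adjusted p = 0.0419), where 4.19% of genes were called higher, and it was lost without any of 5 of the 8 arrays (N-Methylolacrylamide replicates 1 and 3, WCO1 replicates 1, 3 and 4), as well as without the filter on dim genes, when probe sets were averaged and in a fit of its own arrays. In 1,2,3-Trichloropropane lungs Hsp90aa1 was at 5.26, 4.69, 5.19 and 5.09. Set CCO5 was at 4.47, 3.33, 3.84, 4.16 and 3.58 and set CCO6 at 3.81, 4.20, 3.47, 3.49 and 4.74, so 1 control lay above the lowest exposed lung. The change was 1.15 ± 0.24 (adjusted p = 0.00707), where 7.73% of genes were called higher, and it was lost without CCO6 replicate 4 (adjusted p = 0.0552). Quantile normalization moved the median of all genes in this comparison by -0.12 and left 89 higher and 127 lower calls in place of 1045 and 222, and Hsp90aa1 was then not called (adjusted p = 0.0645), nor was it in a fit of its own arrays (adjusted p = 0.109). Cirbp was called in neither of these exposures and was at -0.13 ± 0.20 in the second.

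Other genes of the chaperone lists were called beside Hsp90aa1. In Iodoform lungs 5 of 13 other cytosolic chaperones fell, among them Hspa4l at -0.95 ± 0.29 and Dnajb4, an Hsp40, at -0.83 ± 0.26, and in N-Methylolacrylamide lungs 3 of 13 rose, Dnajb4 at 1.02 ± 0.26, Cacybp at 0.98 ± 0.29 and Dnaja1 at 1.07 ± 0.34. In 1,2,3-Trichloropropane lungs 2 of 13 rose, Hspa4l at 1.00 ± 0.24 and Cacybp at 0.99 ± 0.24. Of all genes, 11.9% were called lower with Iodoform, 4.19% higher with N-Methylolacrylamide and 7.73% higher with 1,2,3-Trichloropropane. Quantile normalization cut the last share from 1045 genes to 89. In the first 2 of these exposures splicing kinases and factors of the temperature-linked list moved the same way. Clk1, a kinase of splicing factors, was at -1.09 ± 0.34 in Iodoform and at 1.14 ± 0.34 in N-Methylolacrylamide, and Clk4, Tra2b and Srsf10 were called with it in both. In Trichlorofluoromethane lungs 0 of 13 cytosolic chaperones but 4 of 12 endoplasmic reticulum chaperones fell, with Hsp90b1 at -0.92 ± 0.24 and Hspa5 at -0.77 ± 0.20, beside 0.296% of all genes called lower. Dbp rose there by 1.85 ± 0.42 while Bmal1 fell by 0.73 ± 0.18.

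Hspb1, the small heat shock protein, fell in lungs of mice that inhaled Naphthalene at 10 and 20 ppm, and was not called at 0.5, 3 or 30 ppm. It was at 3.41, 3.84, 4.19 and 3.49 at 10 ppm and at 4.35, 3.77, 3.57 and 3.80 at 20 ppm, while the 14 air control lungs lay between 4.47 and 4.82. None of the 8 lungs overlapped the controls. The change was -0.93 ± 0.18 at 10 ppm (adjusted p = 0.0123), where 0.133% of genes were called lower, and -0.78 ± 0.18 at 20 ppm (adjusted p = 0.0309), where 0.998% were. Lungs exposed to Methylene Chloride at 100 ppm (-0.53 ± 0.17) and 500 ppm (-0.40 ± 0.18) also lay below all of these air controls, without a call. The other Hspb1 probe set was at -0.79 with Naphthalene at 10 ppm and -0.63 at 20 ppm, and was called at neither.

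At 30 ppm, the highest concentration, Hspb1 was back at 4.45, 4.27, 4.58 and 4.55, and at 0.5 ppm it was at 4.29, 4.77, 4.23 and 4.02. At 3 ppm it was at 4.09, 3.82, 4.30 and 4.27, below all 14 control lungs but not called. The levels thus had no order along concentration, and the linear trend from the lowest to the highest concentration was 0.13 ± 0.20 (adjusted p = 0.675). None of the 8 members had a called trend with Naphthalene, where 5.81% of all genes were called higher and 13.2% lower. The call at 20 ppm was lost without any of 7 of its 18 arrays (Naphthalene 20 ppm replicates 2, 3 and 4, ACO4 replicates 3 and 4, ACO5 replicates 1 and 3) and when the probe sets of the gene were averaged, and that at 10 ppm without Naphthalene 10 ppm replicate 1 or 4. The ciliated cell marker Foxj1 rose at 10 ppm by 0.71 and at 20 ppm by 0.61, and at 20 ppm Dbp was at 2.01 and Bmal1 at -0.99, both called. Their part in the Hspb1 change was not tested.

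With Methylene Chloride, Cirbp rose and Hsp90aa1 fell along concentration. Cirbp was at 0.14, 0.44, 0.67, 0.46 and 0.42 at 100 ppm and at 0.47, 0.51, 0.39 and 0.38 at 500 ppm. It was at 0.64, 0.62, 0.69 and 0.41 at 2000 ppm, at 1.34, 0.72, 0.90 and 0.49 at 3000 ppm and at 1.10, 1.76, 0.52 and 1.33 at 4000 ppm. The upper 2 concentrations held both higher and wider values. The trend was 0.73 ± 0.19 (adjusted p = 0.00449) from the lowest to the highest concentration, where 12.9% of all genes were called higher.

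Hsp90aa1 was between 4.65 and 4.77 at 100 ppm and between 4.54 and 4.91 at 500 ppm, at 4.97, 4.92, 4.94 and 4.94 at 2000 ppm, at 4.24, 4.47, 4.43 and 4.39 at 3000 ppm and at 4.26, 3.28, 4.11 and 3.76 at 4000 ppm. The trend was -0.78 ± 0.23 (adjusted p = 0.0111), where 8.95% of all genes were called lower. The 3 air sets had means of 4.18, 4.01 and 4.14. The group means at 100, 500, 2000 and 3000 ppm lay above those of the air sets and the mean at 4000 ppm below. All lungs at 2000 ppm lay above the 4.79 of the highest of these air controls. No single concentration was called against each air set. Against the equally weighted mean of the air sets, limma called Hsp90aa1 higher at 100 ppm (adjusted p = 0.0293), 500 ppm (0.0486) and 2000 ppm (0.0236). With the air sets added at 0 ppm, or with the logarithm of concentration, the Hsp90aa1 trend was lost (adjusted p up to 0.752) and that of Cirbp was not (adjusted p up to 0.0273). Both trends were lost without Methylene Chloride 4000 ppm replicate 2 (adjusted p = 0.0529 for Cirbp and 0.0813 for Hsp90aa1), the lung with the highest Cirbp and the lowest Hsp90aa1 of the 5 Methylene Chloride groups.

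The remaining 6 members had no called trend with Methylene Chloride. Hsph1 was at -0.27 ± 0.27 (adjusted p = 0.471), Hspa8 at -0.05 ± 0.14, Hspa1a at 0.00 ± 0.49, Hspa1b at -0.15 ± 0.51, Hspb1 at 0.32 ± 0.19 and Dnajb1 at 0.52 ± 0.31. Clock genes had the wider trends, with 9 of 15 higher and 4 lower. Dbp was at 4.19 ± 0.34 (adjusted p = 1.32e-20) and Bmal1 at -1.40 ± 0.15 (adjusted p = 8.90e-14). Their part in the Cirbp trend was not tested.

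**Figure D3:**
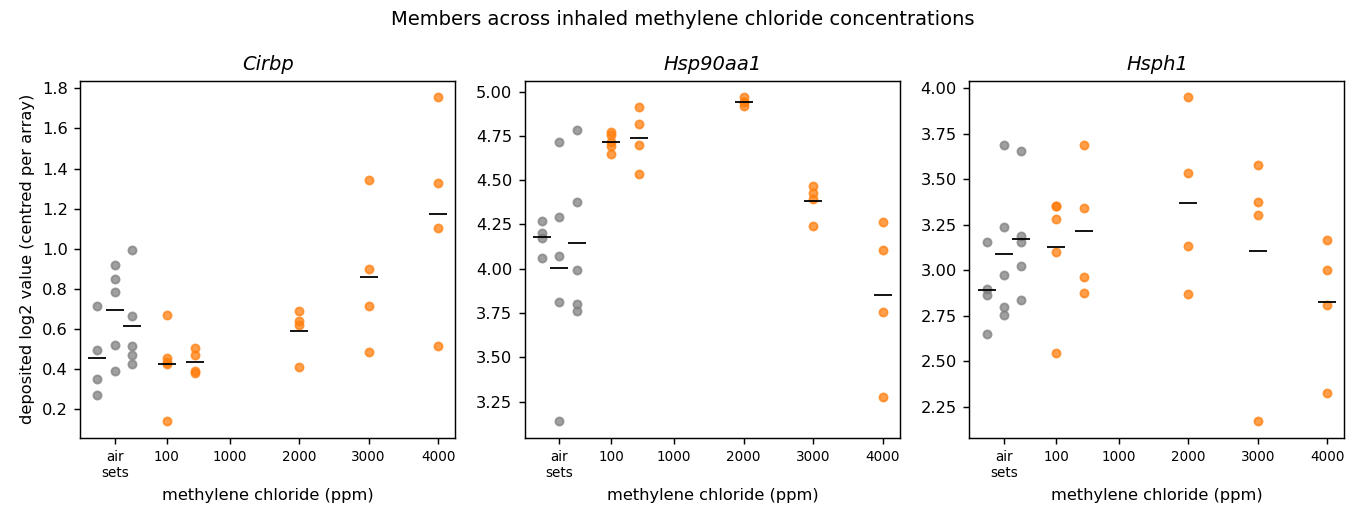
Deposited log2 values of Cirbp, Hsp90aa1 and Hsph1 (panels) in single lungs (dots) and group means (bars) against inhaled Methylene Chloride in ppm, with the air sets ACO3, ACO4 and ACO5 at the left. Cirbp means rise from 0.43 at 100 ppm to 1.18 at 4000 ppm, and Hsp90aa1 stands at 4.94 at 2000 ppm and at 3.85 at 4000 ppm.

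In the other 25 exposures no member was called, though in some a member did not overlap its controls. Hsp90aa1 with Methylene Chloride at 2000 ppm and Cirbp with 4-Nitroanthranilic acid were such cases. The order of group means shows where a gene stood lowest or highest. Hsph1 was lowest with malathion at 1.27 ± 0.38 (SD, n = 4) and next lowest with Coumarin at 1.88 ± 0.79 and Trichlorofluoromethane at 2.18 ± 0.37, neighbours that lie within an SD of each other. Cirbp was highest with malathion at 1.94 ± 0.50 and 2,2-Bis(bromomethyl)-1,3-propanediol at 1.77 ± 0.37, followed at a distance by Methylene Chloride at 4000 ppm at 1.18 ± 0.52. It was lowest with Vanadium Pentoxide at 0.13 ± 0.33.

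The inducible Hsp70 genes stood highest with Propylene glycol mono-t-butyl ether, Hspa1b at 4.29 ± 0.35 and Hspa1a at 2.95 ± 0.34. Their changes there were 1.22 ± 0.50 (adjusted p = 0.275) and 1.39 ± 0.48 (adjusted p = 0.189). They stood lowest with 2-Chloromethylpyridine hydrochloride at 250 mg/kg and malathion, Hspa1b at 0.81 ± 0.63 and 0.93 ± 0.55. In 2-Chloromethylpyridine hydrochloride lungs all 7 heat shock changes were below 0, the largest that of Hspa1b at -1.57 ± 0.63, and none was called (adjusted p = 0.639). The median of the 7 was -0.71, and in that comparison 0 of all genes were called higher and 0 lower. All 7 were also below 0 with 4-Nitroanthranilic acid, and all 7 above 0 with 1-Amino-2,4-dibromoanthraquinone, Tris(2,3-dibromopropyl)phosphate, Propylene glycol mono-t-butyl ether and 1,2,3-Trichloropropane. Cirbp was at 0.05, -0.08, 0.22 and -0.13 in these last 4, none of them called.

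Among mice of the same group, Hsph1 ran against Cirbp, and the other heat shock genes did so less or not at all. Values are correlations of deviations from the group mean over the 133 exposed and 58 control arrays, which share RNA preparation and array processing, and they describe the lungs without a test. Hsph1 and Cirbp had a Pearson r of -0.54 and a Spearman rho of -0.56. It was -0.43 among control lungs, -0.59 among exposed lungs, between -0.66 and -0.46 within each of the 4 array batches, and -0.54 without the 2 arrays farthest from the median of Hsph1. Hsp90aa1 (-0.39), Hspb1 (-0.33) and Hspa8 (-0.32) were also inverse to Cirbp, though Hspb1 was at 0.0748 within batch IMFGN0023_8, the smallest with 18 arrays, and Hspa8 at -0.13 among control lungs.

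The inducible Hsp70 genes and their partner Dnajb1 had correlations with Cirbp nearer to 0 or above it. Hspa1a was at 0.11, Hspa1b at -0.05 and Dnajb1 at 0.27 with Cirbp, although in batch IMFGN0023_8 these were -0.32, -0.44 and -0.32. These 3 genes varied together, with r of 0.94 between Hspa1a and Hspa1b, whose near-identical copies may share signal, 0.92 between Hspa1a and Dnajb1 and 0.83 between Hspa1b and Dnajb1. Hsph1 was closer to Hspa8 (0.74), Hsp90aa1 (0.64), Hspa1b (0.62) and Hspb1 (0.61) than to Dnajb1 (0.32). The members did not fall into separate blocks, since Hspa1b was also at 0.55 with Hspa8, while Hsp90aa1 was at 0.34 with Hspa8 and 0.19 with Hspb1. Within groups the clock gene Dbp was at -0.15 with Hsph1 and -0.04 with Cirbp but at -0.52 with Hspa1a, -0.49 with Hspa1b and -0.51 with Dnajb1. Other clock genes differed from Dbp. With the same genes in that order, Per1 was at 0.06, 0.36, 0.54, 0.45 and 0.58, and Bmal1 at 0.21, 0.16, 0.36, 0.43 and 0.40. The immediate early gene Fos was at -0.11, 0.56, 0.18, 0.11 and 0.31. The RNA integrity number, given for 159 arrays, had correlations between -0.16 and 0.17 with the 8 members.

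**Figure D4:**
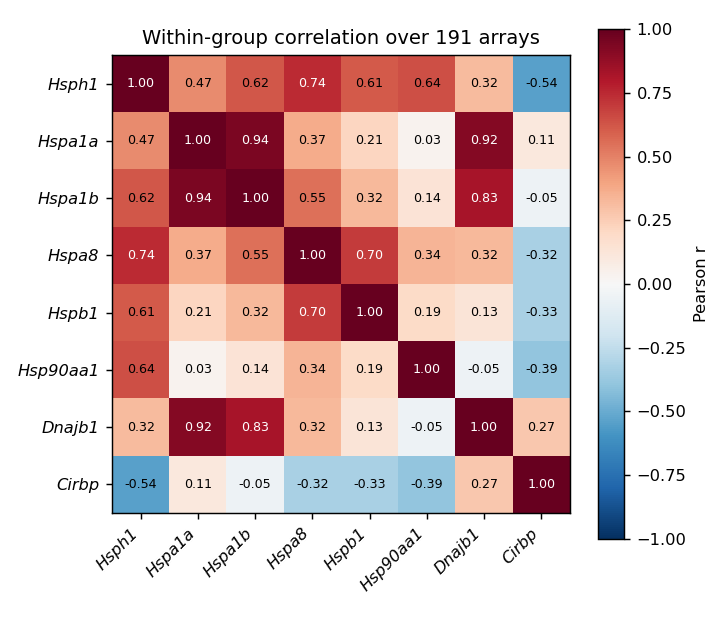
Pearson correlation of within-group deviations for each pair of the 8 measured members over all exposed and control arrays. Hspa1a, Hspa1b and Dnajb1 lie at 0.83 to 0.94 with one another, and Cirbp is inverse to Hsph1 (-0.54) and near 0 with Hspa1b (-0.05).

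**Figure D5:**
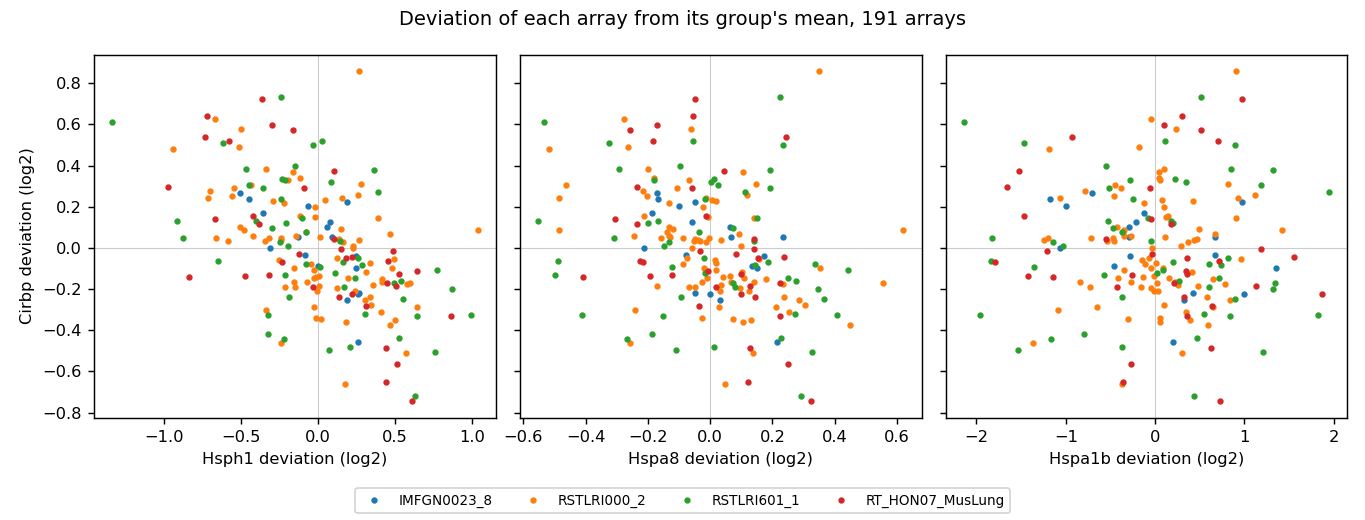
Deviation of each exposed or control array from its group mean, in log2, for Cirbp (vertical) against Hsph1, Hspa8 and Hspa1b (horizontal), coloured by array batch. The cloud of Hsph1 slopes downward in every batch, and that of Hspa1b has no slope over all arrays.

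The 5 genes whose deviations were most like those of Hsph1 were Ahsa2, a relative of the Hsp90 activator Ahsa1 (r of 0.89), Chordc1 (0.84), the inositol transporter gene Slc5a3 (0.81), Dnaja1 (0.81) and Hspd1 (0.79). The 5 least like it were Zbtb11os1 (-0.70), Oas1c (-0.64), Sybu (-0.63), Accs (-0.61) and Noxo1 (-0.60). Most like Cirbp were Haghl (0.83), Rbmx (0.79), Phykpl (0.76), Misp3 (0.74) and Tmem37 (0.74). Least like Cirbp were Npr3 (-0.58), Hspa4l (-0.55), Hsph1 (-0.54), Lypd6b (-0.54) and Ahsa2 (-0.53), so Hsph1 ranked 3 from the bottom among 13523 other genes, and Hspa4l and Ahsa2 beside it also belong to the chaperone machinery. The median gene had an r of -0.01 with Hsph1 and of 0.15 with Cirbp.

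Rbm3 itself was not measured apart from its pseudogene. Of the 2 probe sets listed with Rbm3 and Rbm3-ps, 1422660_at was at 4.04, 3.45, 4.03 and 3.39 in malathion lungs, at 3.74, 3.19, 3.84 and 3.52 in 2,2-Bis(bromomethyl)-1,3-propanediol lungs and at 2.86, 2.67, 3.07 and 2.91 in their 4 controls. Neither exposed group overlapped these FCO2 controls. The other plain chow sets were higher, FCO1 at 3.40, 3.57, 3.30 and 3.35 and RodentChow at 3.24, 3.62 and 3.18. All lungs of both exposed groups lay within the control arrays of the series, which ran from 2.52 in ACO4 to 4.23 in CCO5. In a fit over 23685 probe sets 1422660_at was called higher in both exposed groups, by 0.85 ± 0.22 (adjusted p = 0.0178, 1.00% of probe sets called higher) and 0.70 ± 0.22 (adjusted p = 0.0333, 7.51%). It was called lower with Tetrafluoroethylene, at -0.64 ± 0.22 (adjusted p = 0.0333, 2.44% of probe sets called lower). Its trend with Methylene Chloride was 0.88 ± 0.17 (adjusted p = 0.000141, 11.2% of probe sets called higher), and its within-group r with Cirbp was 0.70.

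The second probe set, 1429169_at, was dim. It ran from -1.15 to 0.21 over all arrays, around the median of all values at -0.386, while 1422660_at ran from 2.25 to 4.24. With Iodoform both sets were lower than in set CCO4 by a like amount, 1422660_at at -0.35 ± 0.22 (adjusted p = 0.210) and 1429169_at at -0.35 ± 0.14 (adjusted p = 0.0435, 12.7% of probe sets called lower). With malathion and 2,2-Bis(bromomethyl)-1,3-propanediol, where 1422660_at was called higher, 1429169_at was at -0.37 ± 0.14 (adjusted p = 0.161) and -0.26 ± 0.14 (adjusted p = 0.193). It was called lower in the Methylene Chloride trend at -0.29 ± 0.11 (adjusted p = 0.0444, 9.89% called lower). Its within-group r was -0.30 with Cirbp and 0.60 with Hsp90aa1. The signs of the 2 probe sets thus differed with malathion, 2,2-Bis(bromomethyl)-1,3-propanediol and the Methylene Chloride trend but not with Iodoform. As one set is near the median of all values and both list the pseudogene, no direction is given for Rbm3.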

How the data were processed

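Lung RNA of 133 exposed and 58 control mice was labelled with biotin and hybridised to Affymetrix mouse expression arrays, 1 mouse an array, per the labels' protocols. The values used are the deposited log2 values of the series matrix. They are centred on each array (array means between -0.0027 and 0.0033, range -2.33 to 8.14), and the base of the logarithm and the normalization are not given in the sources used here, so base 2 was assumed. The platform annotation gave 1 symbol to 34958 probe sets of 45101, several to 932 and none to 9211. The probe set of highest mean stood for a gene, and genes above the median of all values on at least 3 arrays were kept. One model with a mean for each group was fitted to all arrays with limma 3.58.1 in R 4.3.3, with Benjamini-Hochberg adjustment over all genes in each comparison, and the largest adjusted p over the control sets is given. Changes are against the equally weighted mean of those sets. The scripts were tested on simulated data. The members and gene lists were chosen with earlier results of these data known. The genes named are the 8 measured members, of each list at most 4 called genes a comparison by adjusted p and, for Hsph1 and Cirbp, the 5 most and 5 least similar genes. Signal intensity limits the precision of dim genes, and array number limits that of every group. Alternatives were quantile normalization, no filter, the mean of probe sets, the arrays of a comparison alone, a test against the equally weighted mean of the control sets in place of each set in turn, and leaving out arrays of low RNA integrity or single arrays. There were 0 value columns without a sample.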

Additional observations from a re-analysis of the deposited data

Results flagged for a closer look

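Malathion differed from 2 of the 3 other chow exposures of its array batch in a direct test, limma with Benjamini-Hochberg adjustment over all genes. Against Diazinon, Cirbp differed by 1.13, Hsph1 by -1.32 and Hspa8 by -0.66. Against 4-Nitroanthranilic acid, Cirbp differed by 1.09, Hsph1 by -1.66, Hsp90aa1 by -0.98 and Hspa8 by -0.47. Against 2,2-Bis(bromomethyl)-1,3-propanediol no member was called, with Cirbp at 0.17 (adjusted p = 0.640) and Hsph1 at -1.15 (adjusted p = 0.102), and 2977 of all genes had an unadjusted p under 0.05. These contrasts were chosen after the calls were seen, and the doses of the chemicals differ.

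The probe sets listed with both Rbm3 and Rbm3-ps lie outside the member genes and also gave calls. The set 1422660_at was at 0.85 with malathion, 0.70 with 2,2-Bis(bromomethyl)-1,3-propanediol and -0.64 with Tetrafluoroethylene, and the set 1429169_at was at -0.35 with Iodoform. Dixon's critical values were applied to each called member in the exposed groups and control sets of its own calls, 28 combinations of gene and group. No array stood apart in these. Hspa1a, Hspa1b, Dnajb1 and the Methylene Chloride groups were not looked at in this way.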

How the results depend on the processing

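Of the 13 member calls, 12 were kept after quantile normalization within batches, 12 without the filter, 10 with the mean of all probe sets, 7 with the arrays of a comparison alone, 13 against the mean of the control sets and 13 without arrays of low RNA integrity, and 0 reversed. The last 2 of these settings could change little. The chow, water, Iodoform and Trichlorofluoromethane calls have 1 control set each, so the test against the mean was the same test, and for the others it asks less than a call against each set. The 2 arrays of low RNA integrity lie in ACO3 and CCO5, which serve only the Naphthalene and 1,2,3-Trichloropropane calls. The 2 higher heat shock calls became 0 with the arrays of a comparison alone, 1 after quantile normalization and 7 against the mean of the control sets. The 1 exposure with opposite calls became 2 with the arrays of a comparison alone and 2 when probe sets were averaged. Calls in the other chaperone lists were 13 higher and 32 lower. They became 2 higher with the arrays of a comparison alone, and 37 higher and 58 lower against the mean of the control sets. The lower calls became 65 after quantile normalization. The lists held 442 other cytosolic, 408 endoplasmic reticulum, 272 chaperonin and 170 mitochondrial tests. Lower calls over all genes also moved with quantile normalization, from 141 to 1934 for N-Methylolacrylamide and from 8 to 4 for Propylene glycol mono-t-butyl ether. The share of all genes called under each setting was not set beside these counts, so they are not read as a chaperone result. The 2 members with a Methylene Chloride trend became 1 with air at 0 ppm and 1 with the logarithm of concentration. The r of Hsph1 with Cirbp was -0.66 in batch IMFGN0023_8, -0.65 in batch RT_HON07_MusLung and -0.68 after quantile normalization, and in batch IMFGN0023_8 Dnajb1 was at -0.32 and Hspb1 at 0.0748 with Cirbp. The cause of these shifts was not tested.

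Leaving out each of 80 arrays in turn gave 1 to 2 higher and 7 to 10 lower heat shock calls, 2 higher Cirbp calls and 1 exposure with opposite calls. Leaving out each of 21 Methylene Chloride arrays gave 0 to 2 members with a trend. The median change of all genes moved by over 0.1 after quantile normalization in 2 exposures, by -0.12 for both 4-Nitroanthranilic acid and 1,2,3-Trichloropropane. Vanadium Pentoxide against set ACO3 alone called 0 members, as against all air sets. No paired analysis was possible because the labels give no replicate numbers shared between groups, and the numbers used here follow accession order.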
